A study of Mus musculus with 6 samples.

Results

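The 38 genes described here encode the unfolded protein response and the integrated stress response. They were taken by symbol from a table of 49671 mouse genes. All 38 had a row, and all 38 had a mean of at least 20 over the 6 libraries. The lowest mean was 26.5 for Slc7a3 and the next lowest was 306 for Sdf2l1. RNA came from LKPR EPCAM+ cells, 1 line that was derived from squamous cell carcinoma of mouse skin. The alleles that all groups shared included Lgr5CreER, p53 fl/fl and Rosa26-YFP+/+. Each group had 2 libraries: cells with the empty pLKO.1-puro lentiviral vector, cells with a knockdown of Ntn1 (the secreted ligand netrin-1), and cells with a knockdown of Unc5b (a netrin-1 receptor). All were selected with puromycin, cultured for 6 days and sorted as living YFP+ and EPCAM+ cells. Whether the 2 libraries of each group were grown apart is not given, so the p-values rest on a spread that may be technical.

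The unfolded protein response is set off when misfolded proteins accumulate in the endoplasmic reticulum (ER). The sensors IRE1, PERK and ATF6 sit in the ER membrane. IRE1 splices the mRNA of Xbp1, ATF6 is cleaved into a transcription factor, and both raise ER chaperones and degradation factors. PERK is also one of several kinases that phosphorylate the translation factor eIF2alpha, which slows general translation while the transcription factor ATF4 is made. ATF4 raises genes for amino acid synthesis and import, and this arm is the integrated stress response. Much of this signalling acts through splicing, cleavage, phosphorylation and translation, which gene-level RNA values do not measure.

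The deposited values are whole numbers scaled to about 20 M per library. They moved in steps of 1.97 to 3.06, which gave estimated depths of 6.54 to 10.2 M reads, and 3 reads were worth 5.90 to 9.17 units. Of the values up to 150, between 99.8% and 100% lay on these steps, within 0.5 units. The target checks followed the labels. Ntn1 was 1566 and 2588 with the empty vector, 359 and 431 in its own knockdown, and 1319 and 771 in the Unc5b knockdown. Unc5b was 1527 and 1573 with the empty vector, 2311 and 2382 in the Ntn1 knockdown, and 419 and 352 in its own. All 7 epithelial markers passed a mean of 20. Their summed level was 46408 to 47162 with the empty vector, 58322 to 61359 in the Ntn1 knockdown and 46506 to 50957 in the Unc5b knockdown. Most of it was Krt8, Krt18, Epcam and Cdh1. In the Ntn1 knockdown 2 of the 7 were called higher and 1 lower, beside 8.04% and 7.06% of all genes tested. The lower one was Trp63, at 94 and 96 with the empty vector and 33 and 31 there. In the Unc5b knockdown 1 of the 7 was called higher and 0 lower, beside 5.90% and 6.07% of all genes tested. Krt14 varied within groups, at 3917 and 1692 with the empty vector and 1759 and 3817 in the Unc5b knockdown. Summed fibroblast markers, 2 of 7 with a mean of at least 20, were 136 to 137, 208 to 309 and 139 to 237 in the same order, mostly Pdgfra. Summed endothelial markers, 2 of 4 with such a mean, were 96 to 108, 178 to 223 and 88 to 98. Of these, Cdh5 was 0 and 0, then 86 and 113, then 2 and 0, while Pecam1 lay between 88 and 107 in all libraries. The immune list, 1 of 7 with such a mean, summed to 1217 to 1515, 347 to 446 and 1008 to 1577, nearly all of it Csf1r, while markers including Adgre1 and Lyz2 were at 0 in all libraries. The melanocyte list, 2 of 5 with such a mean, summed to 1130 to 1537, 345 to 359 and 313 to 325, mostly Mitf, with Dct at 0 in all libraries. The part of these shifts in the results below was not tested. In bulk RNA, fewer cells of a type and less RNA per cell cannot be told apart.

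Sequence motifs of both arms were present near the annotated start of some of these genes. RefSeq windows on GRCm38.p6, from 250 bases before to 50 after the annotated start, were at hand for 33 of the 38 members as 35 windows. Each motif was searched on both strands. The ER stress element ERSE (CCAAT, then 9 bases of any kind, then CCACG) occurred in 39 of all 32851 windows, or 0.119%, and in the windows of Hspa5, Hsp90b1, Calr, Canx, Pdia6, Creld2 and Dnajc3. The stretches below show this element in Hspa5, the best known ER chaperone, and in the 3 ER genes called lower in the Ntn1 knockdown, with the motif's fixed letters in capitals. Pdia6 and Hspa5 hold it in the forward direction, and Creld2 and Calr hold its reverse complement. All are written 5′ to 3′ on the gene's strand.
Hspa5, chr2:34772020-34772048, plus strand: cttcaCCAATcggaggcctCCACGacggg
Pdia6, chr12:17266476-17266524, plus strand: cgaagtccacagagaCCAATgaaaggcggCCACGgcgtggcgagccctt
Creld2, chr15:88819505-88819553, plus strand: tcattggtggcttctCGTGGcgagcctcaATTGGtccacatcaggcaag
Calr, chr8:84847060-84847108, minus strand: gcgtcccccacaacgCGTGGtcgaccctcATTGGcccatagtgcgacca

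The element that ATF4 and its partners bind with C/EBP proteins, CARE, was searched as TGATGNAA. It occurred in 1304 windows, or 3.97%, and in those of Asns, Chac1, Herpud1, Nupr1, Slc1a4 and Trib3. The second ER stress element, ERSE-II (ATTGG, 1 base of any kind, then CCACG), occurred in 12 windows, or 0.0365%, and among the members in that of Herpud1. The unfolded protein response element core TGACGTGG occurred in 222 windows, or 0.676%, and in 0 members' windows. Asns and Chac1 are shown because they differed between the knockdowns and their match lies upstream of the start. Herpud1 is shown because its window holds both an ATF4-type and an ER stress element. Slc1a4 also differed between the knockdowns, but its match spans the annotated start, and that of Trib3 lies after it. Capitals mark the fixed letters of each match.
Asns, chr6:7693214-7693243, minus strand: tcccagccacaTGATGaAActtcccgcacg
Chac1, chr2:119351034-119351071, plus strand: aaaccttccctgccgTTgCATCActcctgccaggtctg
Herpud1, chr8:94386302-94386402, plus strand: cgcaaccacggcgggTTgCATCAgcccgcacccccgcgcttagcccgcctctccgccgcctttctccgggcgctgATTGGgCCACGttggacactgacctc
A match describes these letters and shows no binding.

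In the Ntn1 knockdown the members moved in both directions. Against the empty vector, 4 of 38 members rose (Trib3, Asns, Psph and Slc7a3) and 5 fell (Pdia6, Psat1, Nupr1, Creld2 and Calr). Together these were 23.7% of the members, beside 15.1% of all 15330 genes tested. The members were chosen with earlier results of these data known, so such shares are no independent test of the group. Slc7a3 passed the mean of 20 only through the Ntn1 knockdown, and without it 3 of 37 members (8.11%) rose and 8 of 37 (21.6%) were called. Of all genes, 8.04% were called higher and 7.06% lower, beside 10.5% and 13.2% of the members. The members' median log2 fold change was 0.06, with a range from -1.09 to 1.60, and the median over all genes was -0.02. Calls are from limma on log2(value + 5) with a Benjamini-Hochberg adjusted p under 0.05 over all genes tested, and fold changes are on that scale while ratios are of mean values.

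In the Unc5b knockdown all called members were lower, with Phgdh, the first enzyme of serine synthesis, changing most. Against the empty vector 4 of 38 members, or 10.5%, fell (Phgdh, Herpud1, Psat1 and Slc1a4), beside 12.0% of all genes called in either direction. Of all genes, 6.07% were called lower and 5.90% higher. With limma, 0 members were called higher, and with so few calls that count says little about the members. The share called lies near that over all genes. The calls on Psat1 and Slc1a4 were lost in 8 and 10 of the 15 alternatives of the closing section. At an unadjusted p under 0.05, 2 members were higher and 11 lower, beside 2186 and 1936 of all 15330 genes. The members' median was -0.03, beside 0.04 over all genes. Both comparisons share the 2 empty vector libraries, so their values are only set side by side.

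Compared directly, the knockdowns differed in 8 of 38 members, or 21.1%, beside 7.10% of all genes. This share too is of members chosen with earlier results known. Phgdh, Ddit3, Asns, Slc1a4, Chac1 and Edem1 were higher in the Ntn1 knockdown, and Pdia6 and Creld2 were lower. Of all genes, 4.15% were higher and 2.95% lower in that direction. The members' median was 0.05, beside -0.05 over all genes. In all, 15 members were called in at least 1 comparison and 23 in none. Of the 21 calls over the 3 comparisons, 18 were lost without the first Ntn1 knockdown library and 16 without the second, either of which leaves that group with 1 library. The log2 fold changes of the lost calls were then 0.761 to 1.16 times (median 0.996) and 0.837 to 1.09 times (median 1.00) their values with all libraries. With 2 libraries in a group, the changes without each average to the change with both, so a median near 1 is no sign of stability. The lost calls include Psat1 and Slc1a4 in the Unc5b knockdown against the empty vector, whose fold changes do not use the Ntn1 libraries. Likewise, fold changes between the knockdowns do not use the empty vector libraries. Calls between the knockdowns gained without 1 of those (Herpud1, Trib3, Mthfd2 and Aldh18a1, below) reflect the estimated spread and not a larger difference.

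**Figure D1:**
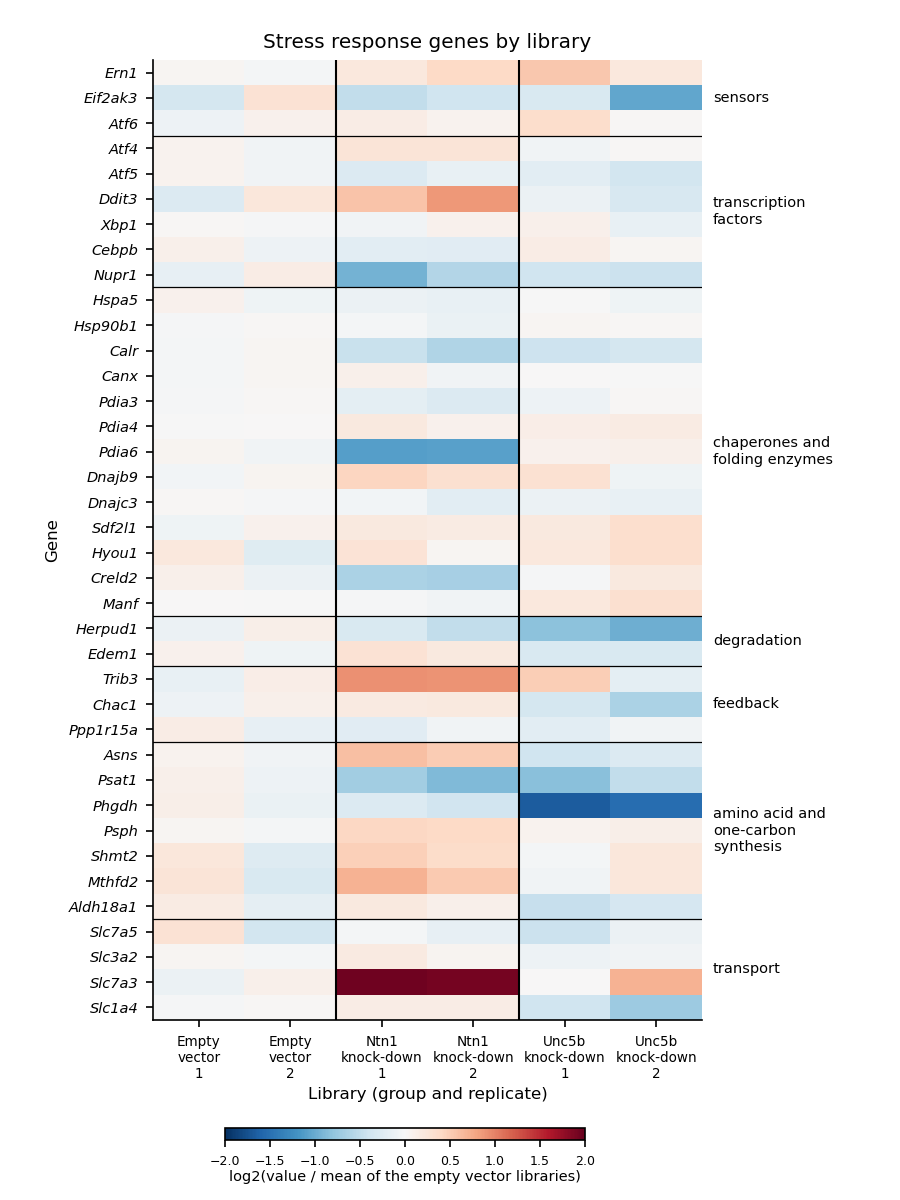
Heat map of the 38 stress response genes (rows, grouped by role) in the 6 libraries (columns). Colour is log2 of the value over the mean of the empty vector libraries. Pdia6, Creld2 and Psat1 are blue in both Ntn1 knockdown libraries while Trib3, Asns and Slc7a3 are red. Phgdh is darkest blue in both Unc5b knockdown libraries, where Herpud1 is also blue.

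With all 6 libraries, limma called 0 of the 3 sensor genes in any comparison. Of all genes tested, 15.1% were called in the Ntn1 knockdown, 12.0% in the Unc5b knockdown and 7.10% between the knockdowns. Ern1, which encodes IRE1, was 772 and 736 with the empty vector, 870 and 997 in the Ntn1 knockdown, and 1092 and 873 in the Unc5b knockdown. Eif2ak3, which encodes PERK, was 827 and 1285, then 751 and 798, then 853 and 512 in the same order. Its libraries differed more within the empty vector and Unc5b groups than the group means of the empty vector and the Ntn1 knockdown did. Atf6 lay between 1527 and 2073 in all libraries. Per kilobase of exon, Ern1 was at 92.3 units with the empty vector, the second lowest level of the 38 genes, and Eif2ak3 and Atf6 stood at 175 and 177. Without the first empty vector library, Eif2ak3 was called lower in the Unc5b knockdown (adjusted p = 0.0423).

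Among the 6 transcription factors, 1 was called against the empty vector, beside 15.1% of all genes in the Ntn1 and 12.0% in the Unc5b knockdown. Nupr1, a small stress-induced chromatin protein, was 2649 and 3309 with the empty vector, 1543 and 1985 in the Ntn1 knockdown, and 2270 and 2205 in the Unc5b knockdown. Its lowest empty vector library lay above all 4 knockdown libraries. It fell 1.69-fold in the Ntn1 knockdown (log2 fold change -0.76 ± 0.16 SE, limma adjusted p = 0.0151), and its log2 change of -0.40 in the Unc5b knockdown was not called (adjusted p = 0.145). Without the first Ntn1 knockdown library the Ntn1 call was lost (adjusted p = 0.163), and without the first empty vector library the Unc5b difference was called (adjusted p = 0.0493).

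Ddit3, which encodes the pro-apoptotic factor CHOP, was 303 and 428 with the empty vector, 542 and 670 in the Ntn1 knockdown, and 336 and 292 in the Unc5b knockdown. Both Ntn1 knockdown libraries lay above all 4 others. The difference between the knockdowns was called, at 1.93-fold (log2 0.93 ± 0.21 SE, limma adjusted p = 0.0362). Against the empty vector the ratio in the Ntn1 knockdown was 1.66 (log2 0.73, 95% interval 0.25 to 1.22), with an adjusted p of 0.051. That comparison was called with TMM scaling (adjusted p = 0.0432) with median-of-ratios scaling (adjusted p = 0.0414), and without the second empty vector library (adjusted p = 0.0181). The difference between the knockdowns was lost without any 1 of their 4 libraries (adjusted p from 0.113 to 0.29). The exons of Ddit3 overlap those of Mars, on the other strand, over 68 bases, and reads there cannot be assigned to either without strand.

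Atf4, the central factor of the integrated stress response, was 6108 and 5499 with the empty vector, 6953 and 6911 in the Ntn1 knockdown, and 5542 and 5874 in the Unc5b knockdown. The Ntn1 knockdown libraries did not overlap the others, but the 1.19-fold difference from the empty vector (log2 0.26, 95% interval 0.02 to 0.50) was not called (limma adjusted p = 0.14). Xbp1, the factor downstream of IRE1, lay between 1575 and 1859 in all libraries, with log2 changes of 0.01 and -0.02 in the Ntn1 and Unc5b knockdowns. Its value does not separate the spliced from the unspliced mRNA. Atf5 ranged from 723 to 975 and Cebpb from 1694 to 2193 over the 6 libraries, and neither was called in any comparison.

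The 5 highest levels per kilobase of exon were those of chaperones and folding enzymes, but this group reached down to 180 units for Dnajb9. With the empty vector Pdia3, a disulfide isomerase that works with calreticulin and calnexin, stood at 6181 units per kilobase. Calr, which encodes the lectin chaperone calreticulin, followed at 5264, Hspa5, the HSP70 of the ER known as BiP, at 4940, Hsp90b1, the HSP90 of the ER, at 4825, and Canx, the membrane lectin calnexin, at 3746. Of the 13 genes in this group, 0 were called higher and 3 lower in the Ntn1 knockdown, and 0 were called in the Unc5b knockdown (limma). Over all genes 8.04% were called higher and 7.06% lower in the Ntn1 knockdown, and 5.90% and 6.07% in the Unc5b knockdown. With so few genes, a count of 0 says little about the group. At an unadjusted p under 0.05, 0 were higher and 4 lower in the Ntn1 knockdown, and 1 was higher and 1 lower in the Unc5b knockdown. Of all 15330 genes, 2272 were higher and 2338 lower at that level in the Ntn1 knockdown, and 2186 and 1936 in the Unc5b knockdown. The group's median log2 fold changes were -0.09 and 0.09, beside -0.02 and 0.04 over all genes.

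Pdia6, a disulfide isomerase that also acts on the luminal side of IRE1, had the lowest adjusted p of all members in the Ntn1 knockdown comparison. Its values were 5059 and 4642 with the empty vector, 2266 and 2290 in the Ntn1 knockdown, and 5149 and 5209 in the Unc5b knockdown. The Ntn1 knockdown libraries were far below the 4 others and differed little from each other. Pdia6 fell 2.13-fold against the empty vector (log2 -1.09 ± 0.10 SE, limma adjusted p = 0.000502) and was 2.27-fold lower than in the Unc5b knockdown (adjusted p = 0.00121). In the Unc5b knockdown its log2 change was 0.10 (95% interval -0.14 to 0.33, adjusted p = 0.608). The call against the empty vector held in all 15 alternatives tried, and that between the knockdowns was lost only without the first Ntn1 knockdown library (adjusted p = 0.0521). The gene lies at chr12:17266545-17284770 on the plus strand (GRCm38), and 50 bases of its exons, 1.34%, overlap Atp6v1c2 on the other strand, whose mean value was 67.7.

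Creld2, an ER stress-induced protein with disulfide isomerase activity, was 865 and 745 with the empty vector, 521 and 508 in the Ntn1 knockdown, and 793 and 922 in the Unc5b knockdown. The Ntn1 knockdown libraries lay below the 4 others, as for Pdia6. It fell 1.56-fold against the empty vector (log2 -0.64 ± 0.15 SE, limma adjusted p = 0.0241) and was 1.67-fold lower than in the Unc5b knockdown (adjusted p = 0.0253). Both calls were lost without either Ntn1 knockdown library, the first also without the first empty vector library (adjusted p = 0.0628), and the second also without either Unc5b knockdown library (adjusted p = 0.0717 and 0.16).

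Calr was 14796 and 15523 with the empty vector, 11152 and 9956 in the Ntn1 knockdown, and 11345 and 11919 in the Unc5b knockdown. Here both knockdowns lay below the empty vector. The 1.44-fold decrease in the Ntn1 knockdown was called (log2 -0.52 ± 0.11 SE, limma adjusted p = 0.013), while the 1.30-fold lower mean in the Unc5b knockdown (log2 -0.38, 95% interval -0.62 to -0.14) had an adjusted p of 0.0522. The Ntn1 call was lost without either Ntn1 knockdown library (adjusted p = 0.0802 and 0.167).

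Hspa5, the most widely used readout of ER stress, was 22194 and 19586 with the empty vector, 19338 and 18916 in the Ntn1 knockdown, and 20777 and 19663 in the Unc5b knockdown. Its log2 change was -0.12 (95% interval -0.37 to 0.12) in the Ntn1 knockdown and -0.04 (-0.29 to 0.20) in the Unc5b knockdown, and neither was called. Hsp90b1, Canx, Pdia3 and Dnajc3, a co-chaperone that restrains PERK, were also not called in any comparison. Pdia3 was 19161 and 19646, then 16865 and 16139, then 18026 and 19633 in the 3 groups, with a log2 change of -0.23 in the Ntn1 knockdown (adjusted p = 0.164). Of the 7 members with ERSE in their window, 0 rose and 3 fell in the Ntn1 knockdown, 0 were called in the Unc5b knockdown, and their medians were -0.13 and 0.00. Over all genes 8.04% rose and 7.06% fell in the Ntn1 knockdown, and 5.90% and 6.07% in the Unc5b knockdown.

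The remaining folding genes were not called in any comparison with all libraries. Manf, a secreted factor released under ER stress, was 1718 and 1685 with the empty vector and 1977 and 2117 in the Unc5b knockdown (log2 0.27, adjusted p = 0.169). Dnajb9, a co-chaperone of BiP and a target of spliced Xbp1, was 444 and 476 with the empty vector and 621 and 575 in the Ntn1 knockdown. Its Unc5b knockdown values, 569 and 433, spanned the empty vector's. Pdia4, Sdf2l1 and Hyou1 lay between 4978 and 5757, 259 and 347, and 2744 and 4074 over the 6 libraries. Hyou1, an ER chaperone of the HSP70 family, was called higher in the Unc5b knockdown without the first empty vector library (adjusted p = 0.0401).

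Of the 2 genes of ER-associated degradation, Herpud1 fell in the Unc5b knockdown. This membrane protein helps assemble the degradation complex, and its values were 1226 and 1438 with the empty vector, 1075 and 951 in the Ntn1 knockdown, and 752 and 676 in the Unc5b knockdown. The groups did not overlap and stood in that order. The decrease in the Unc5b knockdown was 1.87-fold (log2 -0.89 ± 0.14 SE, limma adjusted p = 0.0063), and in the Ntn1 knockdown the log2 change was -0.39 (adjusted p = 0.109). The Unc5b call was lost only without the second Unc5b knockdown library (adjusted p = 0.0549). The log2 difference between the knockdowns, 0.50, was not called (adjusted p = 0.0757), but was without either empty vector library (adjusted p = 0.0411 and 0.0405).

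Edem1, which passes misfolded glycoproteins on to degradation, was 2221 and 1985 with the empty vector, 2556 and 2400 in the Ntn1 knockdown, and 1703 and 1698 in the Unc5b knockdown. The empty vector lay between the knockdowns, and the groups did not overlap. It was 1.46-fold higher in the Ntn1 than in the Unc5b knockdown (log2 0.54 ± 0.11 SE, limma adjusted p = 0.0291), and was called in neither comparison with the empty vector. The call was lost without any 1 of the 4 knockdown libraries (adjusted p from 0.124 to 0.278).

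**Figure D2:**
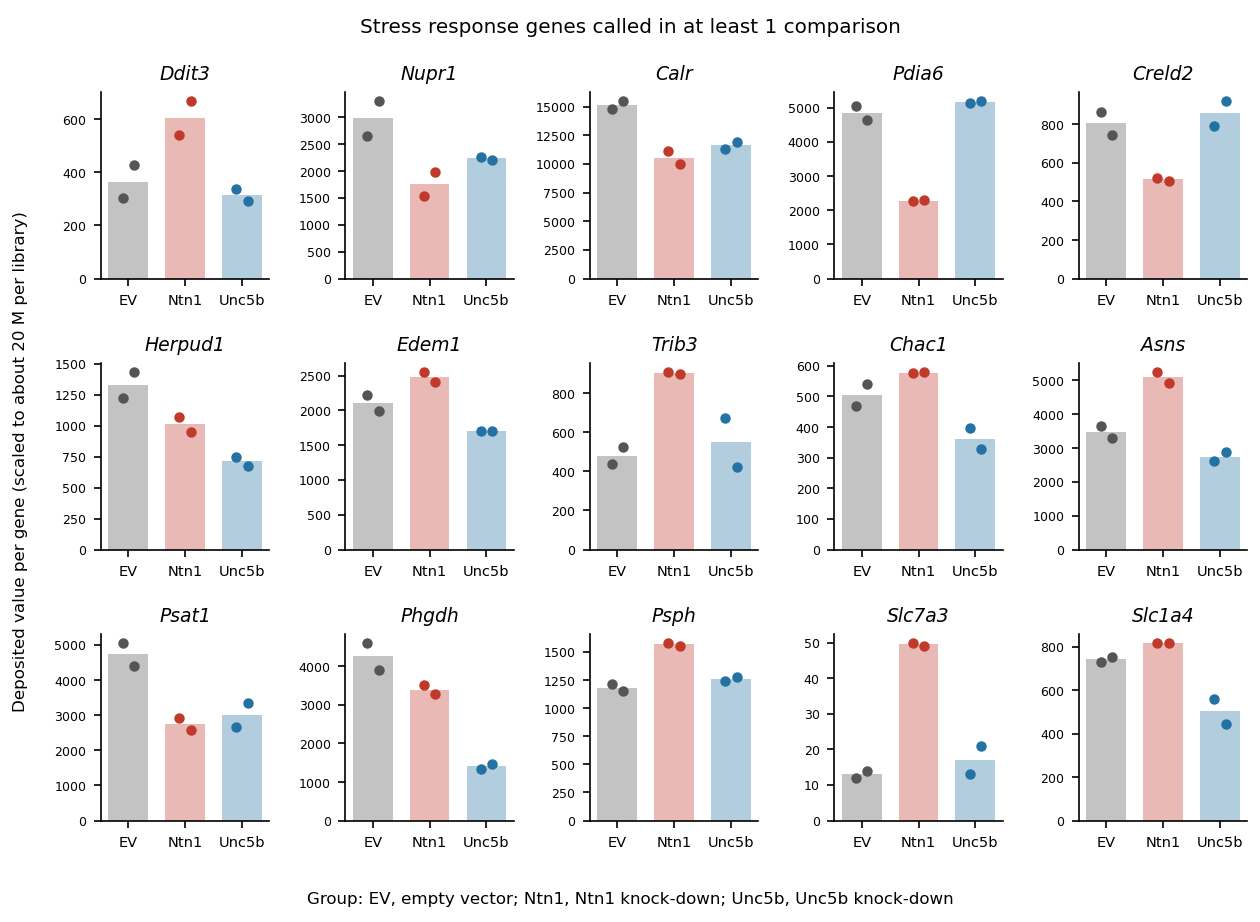
Deposited value of each member called in at least 1 comparison, in each of the 6 libraries (points) with the group mean (bar), on a y axis that starts at 0. Both Ntn1 knockdown libraries of Pdia6 (2266 and 2290) and both Unc5b knockdown libraries of Phgdh (1342 and 1480) sit below the 4 other libraries of the same gene.

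The feedback and effector genes lie downstream of ATF4 and CHOP. Trib3, a pseudokinase that restrains ATF4, was 436 and 526 with the empty vector, 911 and 899 in the Ntn1 knockdown, and 675 and 422 in the Unc5b knockdown. Both Ntn1 knockdown libraries lay above the 4 others, and the Unc5b knockdown libraries spanned the empty vector's. Trib3 rose 1.88-fold in the Ntn1 knockdown (log2 0.91 ± 0.22 SE, limma adjusted p = 0.028), a call lost without either Ntn1 library (adjusted p = 0.179 and 0.172) and without the first empty vector library (adjusted p = 0.067). In the Unc5b knockdown the log2 change was 0.16 (adjusted p = 0.709). The log2 difference of 0.76 between the knockdowns had an adjusted p of 0.0814, and was called without either empty vector library or the first Unc5b knockdown library (adjusted p from 0.046 to 0.0494).

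Chac1, which breaks down glutathione, was 470 and 542 with the empty vector, 575 and 581 in the Ntn1 knockdown, and 398 and 327 in the Unc5b knockdown. As for Edem1, the empty vector lay between the knockdowns. Only the direct comparison was called, at 1.59-fold higher in the Ntn1 knockdown (log2 0.67 ± 0.17 SE, limma adjusted p = 0.0488), and it was lost without any 1 of the 4 knockdown libraries (adjusted p from 0.0951 to 0.287). Ppp1r15a, the GADD34 subunit that directs dephosphorylation of eIF2alpha, lay between 754 and 975 and was not called in any comparison. Of the 6 members with CARE in their window, Asns and Trib3 rose and Nupr1 fell in the Ntn1 knockdown, and Herpud1 and Slc1a4 fell in the Unc5b knockdown. In the direct comparison Asns, Chac1 and Slc1a4 were higher in the Ntn1 knockdown, and the medians of the 6 were 0.17, -0.44 and 0.69. Of all genes, 15.1%, 12.0% and 7.10% were called in these comparisons.

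Among the 7 genes of amino acid and one-carbon synthesis, 2 rose and 1 fell in the Ntn1 knockdown, and 2 fell in the Unc5b knockdown. Of all genes, 8.04% rose and 7.06% fell in the Ntn1 knockdown, and 6.07% fell in the Unc5b knockdown. The 7 genes' median log2 fold changes were 0.41 and -0.33, and in the direct comparison 2 were higher in the Ntn1 knockdown with a median of 0.53. Over all genes these medians were -0.02, 0.04 and -0.05, and 4.15% were higher in the direct comparison. Asns, asparagine synthetase, was 3644 and 3288 with the empty vector, 5262 and 4914 in the Ntn1 knockdown, and 2625 and 2877 in the Unc5b knockdown. The 3 groups did not overlap. Asns rose 1.47-fold in the Ntn1 knockdown (log2 0.55 ± 0.11 SE, limma adjusted p = 0.0136) and was 1.85-fold higher there than in the Unc5b knockdown (adjusted p = 0.00418). Its log2 change of -0.33 in the Unc5b knockdown was not called (adjusted p = 0.0987). Both calls were lost without either Ntn1 knockdown library (adjusted p from 0.0787 to 0.161).

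The genes Phgdh, Psat1 and Psph encode the successive enzymes that make serine from a glycolytic intermediate, and each had its own pattern. Phgdh, the first step, was 4620 and 3910 with the empty vector, 3510 and 3284 in the Ntn1 knockdown, and 1342 and 1480 in the Unc5b knockdown. The Unc5b knockdown libraries were far below the 4 others. Phgdh fell 3.02-fold there (log2 -1.59 ± 0.12 SE, 95% interval -1.88 to -1.30, limma adjusted p = 0.000404), and this call held in all 15 alternatives. In the Ntn1 knockdown the log2 change was -0.32 (-0.61 to -0.04, adjusted p = 0.123), and the direct difference between the knockdowns was 2.41-fold (adjusted p = 0.00162). That difference was not called without the first or the second Ntn1 knockdown library (adjusted p = 0.061 and 0.0521). Phgdh has 13 near-identical processed copies in the genome, of which 10 were in the table. Their summed values were 313 and 270, then 301 and 259, then 72 and 107 in the 3 groups, so reads may have been split between them and Phgdh.

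Psat1, the second step, was 5066 and 4411 with the empty vector, 2927 and 2569 in the Ntn1 knockdown, and 2652 and 3359 in the Unc5b knockdown. Both knockdowns lay below the empty vector and overlapped each other. It fell 1.72-fold in the Ntn1 knockdown (log2 -0.78 ± 0.15 SE, limma adjusted p = 0.0094) and 1.58-fold in the Unc5b knockdown (log2 -0.66 ± 0.15 SE, adjusted p = 0.0227). The first call was lost without either Ntn1 library (adjusted p = 0.0704 and 0.122), and the second in 8 of the 15 alternatives, among them those without the first empty vector, either Ntn1 or the first Unc5b knockdown library (adjusted p from 0.0506 to 0.118).

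Psph, the last step, was 1211 and 1155 with the empty vector, 1584 and 1553 in the Ntn1 knockdown, and 1240 and 1279 in the Unc5b knockdown. Both Ntn1 libraries lay above the 4 others. It rose 1.33-fold (log2 0.41 ± 0.11 SE, limma adjusted p = 0.0486), a call lost in 12 of the 15 alternatives, including the omission of any 1 library (adjusted p from 0.0534 to 0.276). Its exons overlap a transcript of Cct6a on the other strand over 452 bases, 10.4% of their length, and Cct6a had a mean of 8808, so its level is uncertain.

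The mitochondrial one-carbon genes Shmt2 and Mthfd2 and the proline synthesis gene Aldh18a1 were not called with all libraries. Mthfd2 was 2563 and 1731 with the empty vector, 3495 and 3079 in the Ntn1 knockdown, and 2043 and 2513 in the Unc5b knockdown. The Ntn1 libraries lay above the others, but the empty vector libraries differed by more than the 2 Ntn1 libraries did, and the 1.53-fold difference had an adjusted p of 0.06. Without the first empty vector library it was called (adjusted p = 0.00566), as was Shmt2 (adjusted p = 0.0155). Between the knockdowns Mthfd2 was called without either empty vector library (adjusted p = 0.0322 and 0.0302). Shmt2 was 2759 and 1982, then 3296 and 3052, then 2308 and 2786 in the 3 groups. Aldh18a1 was 3192 and 2536, then 3284 and 3067, then 2086 and 2279, lowest in the Unc5b knockdown (log2 -0.38, adjusted p = 0.112). That difference was called without the second empty vector library (adjusted p = 0.0303), and the one between the knockdowns without either (adjusted p = 0.014 and 0.0131).

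Of the 4 amino acid transporter genes, Slc7a3, a cationic amino acid transporter, was by far the least abundant of the 38 members, at 3.44 units per kilobase with the empty vector. Its values were 12 and 14 with the empty vector, 50 and 49 in the Ntn1 knockdown, and 13 and 21 in the Unc5b knockdown. It passed the mean of 20 only through the Ntn1 knockdown, so its call (3.81-fold, log2 1.60 ± 0.37 SE, limma adjusted p = 0.0232) supports nothing about the group. The call was lost without either Ntn1 library and without the first empty vector library (adjusted p = 0.0536).

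Slc1a4, a neutral amino acid transporter, was 729 and 755 with the empty vector, 820 and 819 in the Ntn1 knockdown, and 560 and 447 in the Unc5b knockdown. The 3 groups did not overlap, with the Unc5b knockdown lowest. It fell 1.47-fold in the Unc5b knockdown (log2 -0.56 ± 0.15 SE, limma adjusted p = 0.0489, lost in 10 of the 15 alternatives) and was 1.63-fold higher in the Ntn1 than in the Unc5b knockdown (adjusted p = 0.0312). The first call was lost without any 1 of the 6 libraries and the second without any 1 of the 4 knockdown libraries (adjusted p from 0.0523 to 0.256). Slc7a5 and Slc3a2, the light and heavy chains of the large neutral amino acid transporter LAT1, were not called. Slc7a5 was 4280 and 2712 with the empty vector, a ratio of 1.58 that was the widest spread of any member in that group, and 3386 and 3104 in the Ntn1 knockdown. Slc3a2 lay between 2982 and 3636.

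Within groups, the ratio of the higher to the lower library had a median of 1.13 over the members with the empty vector, 1.07 in the Ntn1 knockdown and 1.10 in the Unc5b knockdown. Its highest values were 1.58 for Slc7a5, 1.29 for Nupr1 and 1.67 for Eif2ak3. Exons of 13 members overlapped those of another gene, the longest share being 20.7% of Cebpb with Tmem189 on the other strand.

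**Figure D3:**
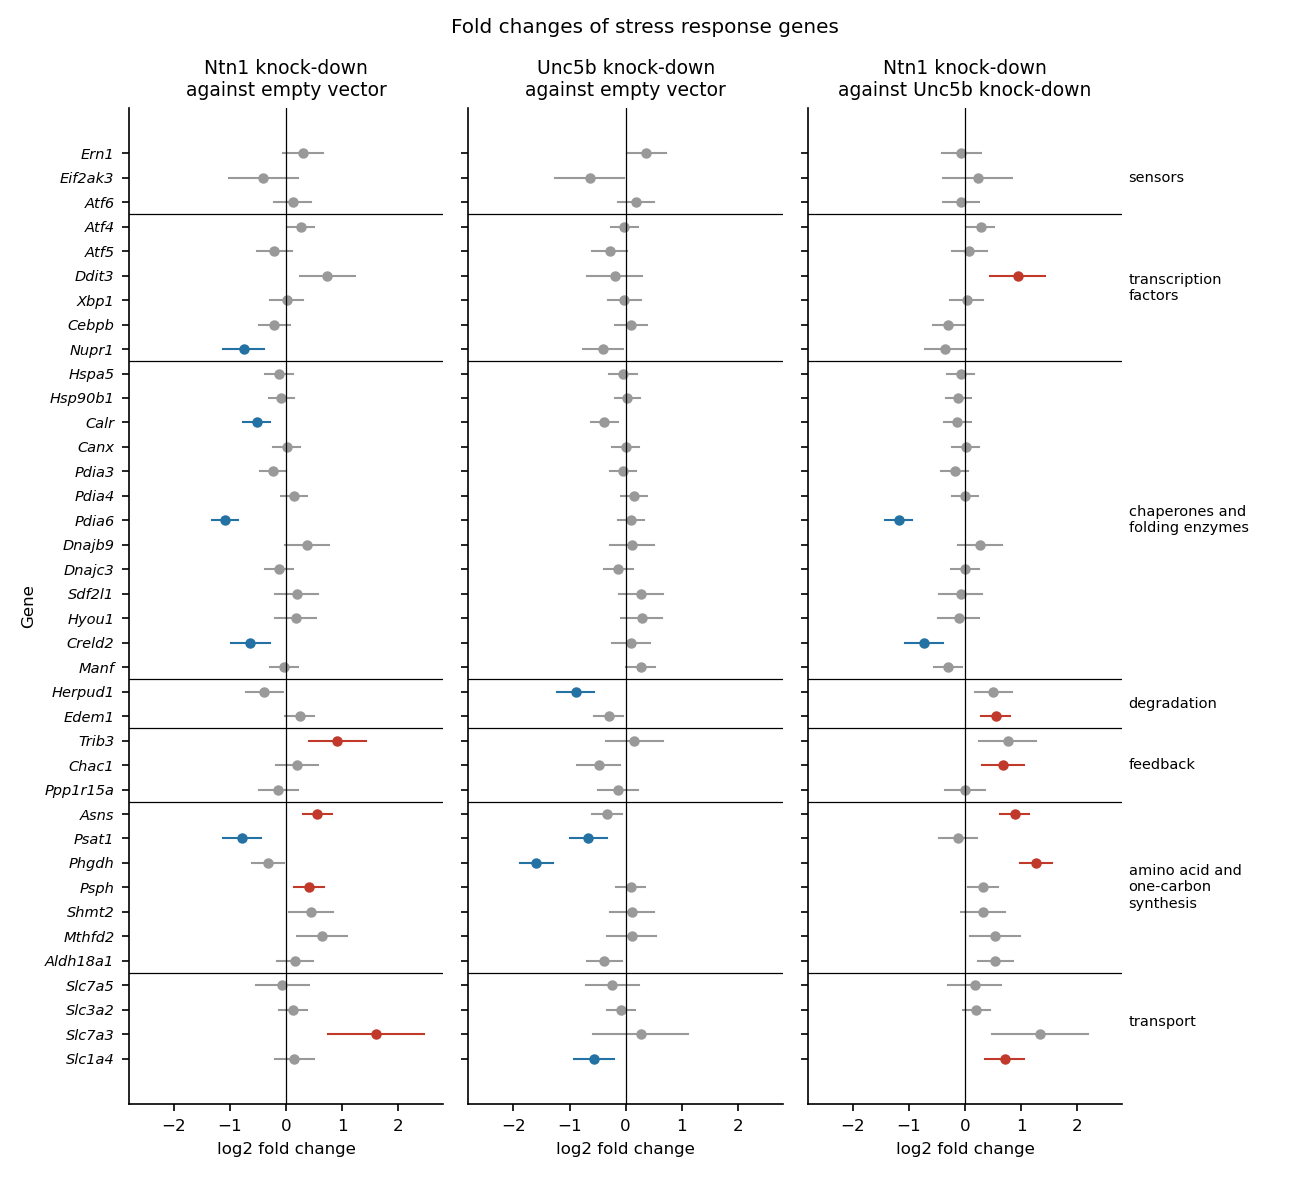
Log2 fold change of each member in the 3 comparisons (x axis, genes on the y axis by role), with 95% intervals as bars, red for called higher, blue for called lower and grey for not called. Phgdh stands at -1.59 in the Unc5b knockdown and -0.32 in the Ntn1 knockdown, and Pdia6 at -1.09 in the Ntn1 knockdown and 0.10 in the Unc5b knockdown.

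Other genes of the same pathways were read from lists of 94 genes, of which 86 had a mean of at least 20. These lists were also chosen with earlier results of these data known. In the Ntn1 knockdown 11 of the 86 rose (12.8%, beside 8.04% of all genes) and 7 fell (8.14%, beside 7.06%), with a median log2 fold change of -0.04. In the Unc5b knockdown 5 rose (5.81%, beside 5.90%) and 2 fell (2.33%, beside 6.07%), with a median of 0.02. Between the knockdowns 4 were higher (4.65%, beside 4.15%) and 5 lower (5.81%, beside 2.95%) in the Ntn1 knockdown, with a median of -0.07. The shares called higher in the Unc5b knockdown and between the knockdowns lie near those over all genes. In the Ntn1 knockdown 5 of 20 aminoacyl-tRNA synthetases rose and 1 fell (median 0.21), 3 of 27 genes of the eIF2alpha and ATF4 arm rose and 2 fell (0.13), and 3 of 39 genes of ER folding, translocation and degradation rose and 4 fell (-0.18). In the Unc5b knockdown 1 synthetase rose and 0 fell (median 0.02), 3 genes of the eIF2alpha and ATF4 arm rose and 2 fell (-0.05), and 1 gene of the ER list rose and 0 fell (0.06). Of the 18 calls named from these lists below, 4 held on leaving out each library in turn: Slc7a11 in both knockdowns, and Gpt2 and Jdp2 in the Unc5b knockdown.

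Slc7a11, the cystine importer and an ATF4 target, was 1881 and 1683 with the empty vector, 3976 and 4223 in the Ntn1 knockdown, and 3390 and 3152 in the Unc5b knockdown. It was called higher against the shared empty vector in each knockdown (log2 1.20 and 0.88, limma adjusted p = 0.000502 and 0.00255). The tryptophanyl-tRNA synthetase gene Wars went from 888 and 592 to 1412 and 1306 and to 1507 and 1429 (log2 0.90 and 1.01, adjusted p = 0.0147 and 0.0112). Gpt2, a mitochondrial alanine aminotransferase, went from 1667 and 2193 to 1087 and 1134 and to 934 and 836 (log2 -0.78 and -1.11, adjusted p = 0.0123 and 0.0035). The calls on Wars were lost without either library of the knockdown compared, as was that on Gpt2 in the Ntn1 knockdown.

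Further genes were called against the empty vector in 1 knockdown only, without a claim that the knockdowns differ. In the Ntn1 knockdown Lars, the leucyl-tRNA synthetase, was 4522 and 4373 against 2844 and 2671 (log2 0.69, limma adjusted p = 0.00473). Wfs1, an ER membrane protein, was 618 and 523 against 1059 and 1221 (-0.99, adjusted p = 0.00732), and Edem2, a mannosidase of degradation, 445 and 505 against 680 and 910 (-0.72, adjusted p = 0.0263). In the Unc5b knockdown Fkbp11, an ER prolyl isomerase, was 141 and 195 against 61 and 82 (1.17, adjusted p = 0.0293), and Bcl2l11, the pro-apoptotic BIM, 3251 and 2879 against 1692 and 1923 (0.76, adjusted p = 0.0186). Each of these calls was lost without either library of its knockdown, that on Edem2 also without the second empty vector library, and that on Fkbp11 also without the first and without either Ntn1 library.

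Between the knockdowns, Jdp2, a transcription factor of the AP-1 family, was 369 and 367 in the Ntn1 knockdown against 188 and 155 in the Unc5b knockdown (log2 1.09, limma adjusted p = 0.0108). With the empty vector it was 417 and 432, and its fall in the Unc5b knockdown was called (log2 -1.29, adjusted p = 0.00311). Ero1l, the oxidase that recharges disulfide isomerases, was 2827 and 2783 against 1644 and 1631 (0.77, adjusted p = 0.00584). The cysteinyl-tRNA synthetase gene Cars was 3441 and 3513 against 2263 and 2224 (0.63, adjusted p = 0.011). The 3 other genes named by the rule were lower in the Ntn1 knockdown. Sec61b, a subunit of the translocon, was 371 and 284 against 579 and 581 (-0.83, adjusted p = 0.0279). Ssr2, of the translocon-associated complex, was 1745 and 1679 against 2400 and 2427 (-0.49, adjusted p = 0.0316). Hm13, the signal peptide peptidase, was 1893 and 1804 against 2642 and 2664 (-0.52, adjusted p = 0.0302). With the empty vector Ero1l was 1753 and 1724, and Cars 2565 and 2520. Sec61b was 436 and 453 there, Ssr2 2056 and 2152, and Hm13 2624 and 2369. The calls on Sec61b, Ssr2, Hm13 and Cars were lost without any 1 of the 4 knockdown libraries, that on Ero1l without either Ntn1 library, and that on Jdp2 without either Ntn1 or the second Unc5b library.

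**Figure D4:**
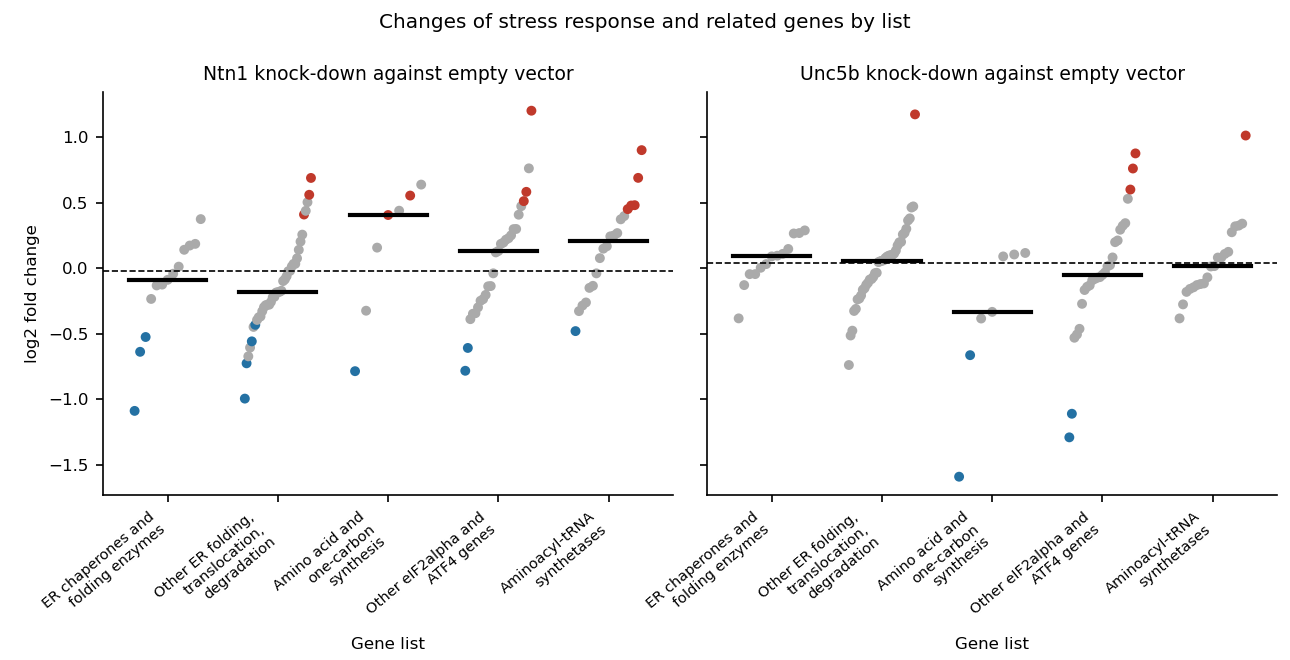
Log2 fold changes (y axis) of 2 groups of members and of the 3 lists of other pathway genes, in each knockdown against the empty vector. Points are genes (red called higher, blue lower, grey not called), bars are list medians and the dashed line is the median of all genes tested. The synthetase list has medians of 0.21 and 0.02 in the Ntn1 and Unc5b knockdowns.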

How the data were processed

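RNA from sorted cells was extracted with RNeasy micro columns and made into Ovation Solo libraries, per the labels' protocols. STAR, HTSeq and Picard and the builds GRCm38 and mm10 are named in the submitters' processing notes. The deposited values are whole numbers scaled by the authors to about 20 M per library, used as a score and not as read counts, so limma 3.58.1 in R 4.3.3 was used. One fit held the 3 group means of all 6 libraries, on log2(value + 5) with a variance trend, over the 15330 genes whose mean reached 20 (residual df 3, prior df 5.33), with Benjamini-Hochberg adjustment. Gene positions and exon overlaps came from GENCODE M21, and promoter windows from RefSeq. Named genes were all 38 members, the targeted genes and, from each comparison's other pathway genes, up to 6 called ones with the largest log2 change. Members and lists were chosen with earlier results of these data known. The alternatives are in the closing section. Some shared alleles and marker genes are not reported here. Near-identical copies shared at least 95% of 200 bases.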

Additional observations from a re-analysis of the deposited data

How the results depend on the processing

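Of the 21 member calls over the 3 comparisons, 2 held in all 15 alternatives run (Pdia6 in the Ntn1 and Phgdh in the Unc5b knockdown against the empty vector). No member result reversed, and 12 of 93 uncalled ones gained a call in some alternative. Against the empty vector, the Ntn1 knockdown had 2314 called genes, 4 members higher and 5 lower. Without a filter these were 1289, 1 and 1, and without a variance trend 1462, 1 and 1. Leaving out each library gave 507 to 2769 genes, 0 to 4 members higher and 1 to 5 lower. The Unc5b knockdown had 1835 called genes, 0 members higher and 4 lower. Genes and lower members were 791 and 2 without a filter, 1115 and 2 without a trend, and 950 and 2 with only the groups compared. Leaving out each library gave 680 to 2428 genes, 0 to 1 members higher (Hyou1, without the first empty vector library) and 2 to 4 lower. Between the knockdowns there were 1088 called genes, 6 members higher and 2 lower. These were 302, 2 and 1 without a filter, 454, 3 and 1 without a trend, and 1856 and 11 (higher) with only the groups compared. Leaving out each library gave 34 to 1842 genes, 0 to 10 members higher and 0 to 2 lower.

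The difference of the first from the second library correlated at 0.160 between the empty vector and Ntn1 groups. It was -0.450 between the empty vector and Unc5b groups, and -0.169 between the knockdowns. The sign varied, so libraries of the same number did not deviate together in all groups. Between the empty vector and Unc5b groups, libraries of opposite number deviated together, and the cause was not tested. These values cannot show whether libraries shared a batch. With a replicate block, the Ntn1 knockdown had 1465 called genes, 1 member higher and 4 lower. The Unc5b knockdown had 1102, 0 and 2, and the direct comparison 459, 2 and 1. The test on recovered whole reads was not run, since rounding leaves the reads of high values uncertain. Where an omission leaves 1 library in a group, that library is assumed to vary like the others. The cause of these changes was not tested. Other pseudocounts, a filter at a mean of 50 and other scalings kept every count of genes and members within 1.5 times its reported value.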

Other observations

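Some genes of the eIF2alpha and ATF4 list lay below the mean of 20 and were not tested; they were picked out after their values were seen. Vldlr, the very low density lipoprotein receptor, was listed at 2 and 2 with the empty vector, 48 and 46 in the Ntn1 knockdown, and 0 and 0 in the Unc5b knockdown. Fgf21, a secreted stress hormone, was 2 and 0, then 12 and 9, then 2 and 2 in the same groups. The empty vector and Unc5b values of both genes are at or under what 3 reads are worth. So is Fgf21 in the second Ntn1 knockdown library, at 9 where 3 reads are worth 9.17 units.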
